A study of Mus musculus with 30 samples.

Results

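Monozygotic twin mouse blastocysts fell into separate groups by the median signal of their arrays, and the genes that differed between these groups are described here. The array median was taken over all 65956 transcript clusters (the probe groups summarised to 1 value each). A pair was placed with the high-median pairs when the arrays of both co-twins exceeded the highest median among the intact controls, 4.69 log2 units. Pairs 1 to 6 met this rule, which gave 12 of the 20 twin arrays and of the 30 arrays in all. Pairs 7 to 10, with 8 arrays, are called the other pairs. The measured values themselves formed the groups, so every difference between them is a description without a test.

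The embryos came from B6C3F1 x CD1 matings after hormone stimulation and were bisected at the 2-cell stage. From each embryo, 1 sister blastomere was grown alone in GM501 and the other alone in SAGE 1-Step, both media of human assisted reproduction, and each array holds the RNA of 1 blastocyst. The 10 controls were undivided blastocysts, each cultured alone in KSOM(aa), a medium for mouse embryos. Collection was at 4 days post coitum (96 h of culture) in all groups. The labels put a twin blastocyst at about 40 to 50 cells and a control at about 80. Medium, bisection and cell number differ together between twins and controls and cannot be told apart. The labels name no batch, culture day or array run for the pairs, so any such grouping cannot be told apart from the high-median and other pairs, whose numbers are contiguous.

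A blastocyst consists of an outer epithelium, the trophectoderm, which pumps fluid into a cavity behind sealed junctions, and an inner cell mass that forms the epiblast and the primitive endoderm. It transcribes its own genome, while oocyte transcripts have mostly been degraded. An array of a whole blastocyst measures the RNA of all these cells together, so fewer cells of a type and less RNA per cell cannot be told apart.

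The array medians of the high-median pairs averaged 5.01 ± 0.15 (SD, 12 arrays), those of the other pairs 4.69 ± 0.18 (SD, 8 arrays) and those of the controls 4.64 ± 0.029 (SD, n = 10). In pairs 1 to 6 the GM501 medians were 5.28, 5.03, 5.07, 5.12, 4.86 and 4.89, and the SAGE medians 5.03, 5.22, 4.96, 5.05, 4.81 and 4.85. In pairs 7 to 10 the GM501 medians were 4.65, 4.66, 4.66 and 4.59, and the SAGE medians 4.67, 5.12, 4.57 and 4.60. Just inside the threshold stood the SAGE twin of pair 5 at 4.81, and just outside it the SAGE twin of pair 7 at 4.67. Pair 8 was split by it: its SAGE twin, at 5.12, lay among the high-median arrays, while its GM501 co-twin, at 4.66, lay among the controls. It counts with the other pairs because the rule asked for both co-twins. Overall counts of separated genes are also given below without it, whereas counts within families and lists are given only with it.

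**Figure D1:**
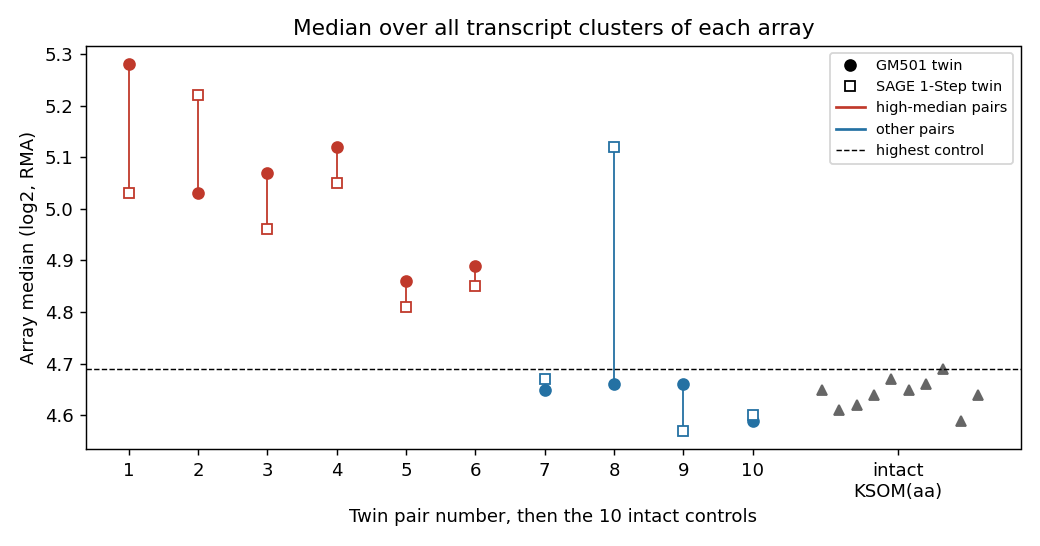
Median over all transcript clusters (log2, vertical axis) of each array, by twin pair number and for the 10 intact controls; filled circles are GM501 twins, open squares SAGE 1-Step twins, and lines join co-twins. Both arrays of pairs 1 to 6 lie above the dashed line at 4.69, the highest control, and only the SAGE twin of pair 8 does so among the other pairs.

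Markers of the blastocyst lineages were present in both groups. The mean level over 9 lineage markers ran from 10.32 to 10.86 in the high-median pairs, from 10.90 to 11.48 in the other pairs and from 11.25 to 11.77 in the controls. Markers of oviduct, cumulus, blood and immune cells had a mean level of 4.66 to 5.00 over 13 genes in the high-median pairs, against 4.43 to 4.70 in the other pairs and 4.39 to 4.58 in controls. None of these 13 met the definition of a separated gene given below, and 4 of them were above the level filter. Both groups held both sexes: Xist, the X inactivation transcript of female cells, was high in both co-twins of 3 of the 6 high-median pairs and 2 of the 4 other pairs, and Eif2s3y, a Y-linked gene, was high in the remaining pairs. No 2 arrays held identical values.

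The groups were compared on pair means, the mean log2 value of 2 co-twins. A gene is called separated when the 6 pair means of the high-median pairs do not overlap the 4 of the other pairs and the group means differ by at least 1 log2 unit. Among 18090 genes above the level filter, 962 were separated with higher values in the high-median pairs (5.32%) and 1133 with lower values (6.26%) in the values as deposited. After each array was centred on its own median, 366 were higher (2.02%) and 1781 lower (9.85%). Centring takes the same 0.32 from every difference, the gap between the mean array medians, so the split between higher and lower depends on the scale. Centring on the 75th percentile gave 752 higher and 1336 lower, and quantile normalization gave 850 and 1333. The 366 higher (2.02%) and 1113 lower genes (6.15%) separated both as deposited and after median centring supply the leading genes described next. Counts within families and lists are of genes separated as deposited, and counts after centring are given where they differ in balance. Of the genes separated both ways, the number with the controls' mean nearer to the other pairs was 358 of 366 for the higher genes and 1057 of 1113 for the lower genes. The rule used the controls' medians, and these genes were picked for separating the groups, so this count was partly fixed in advance. The share over all genes was not counted. The lower genes were mostly known genes: 914 were neither predicted genes, pseudogenes nor small RNAs, against 169 of the 366 higher genes. Without pair 8 the centred counts were 287 higher and 2914 lower, of which 267 and 1769 were shared with the full comparison.

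Genes with higher values in the high-median pairs were led by members of the stefin A cluster, which encode intracellular inhibitors of cysteine proteases. Csta2 (chr16:36221562-36257447, GRCm38.p6, as are all gene positions here) had pair means with a lowest, median and highest of 10.00, 10.73 and 11.85 in the high-median pairs. Pairs 7 to 10 gave 7.25, 8.79, 8.35 and 6.68, and controls ranged from 5.27 to 9.48, so every high-median pair lay above every other pair and every control. The difference was 3.08 as deposited and 2.75 after centring. Its neighbours Stfa1 (chr16:36277148-36285371) and Cstdc6 (chr16:36321665-36334332) differed by 2.55 each, from 10.24 ± 0.81 to 7.69 ± 0.45 and from 9.88 ± 0.66 to 7.33 ± 0.54 (SD, n = 6 and 4 pairs). Of the 7 stefin A genes above the level filter, 5 were separated with higher values as deposited, with a median difference of 1.96. These genes are near copies of each other, and how far their probes tell them apart is not known here, so they are not independent observations.

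Ly96, a partner of the receptor Tlr4, had 7.04, 8.64 and 10.98 as lowest, median and highest pair mean in the high-median pairs. In pairs 7 to 10 it had 5.68, 5.62, 5.55 and 6.43. B2m (chr2:122147687-122153082), the light chain of class I histocompatibility molecules, had 10.77, 11.93 and 12.27 against 9.60, 8.46, 8.40 and 9.38. Both genes were without overlap, with differences of 2.94 and 2.84. Oas1f, of the oligoadenylate synthetase family, was also separated (10.58 ± 1.01 against 8.05 ± 0.83), but its controls, from 9.01 to 12.09, lay with the high-median pairs.

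Cox7a1 (chr7:30184171-30186030), a subunit of cytochrome c oxidase, had 12.07, 13.02 and 13.76 in the high-median pairs and 10.30, 9.05, 10.31 and 11.07 in pairs 7 to 10. Controls lay between 9.30 and 11.99, below every high-median pair. Dmac2l, which encodes a factor of the mitochondrial ATP synthase, had 11.32 ± 0.37 against 8.88 ± 0.42. The chromatin cofactors Rcor3 and Sap30, partners of histone deacetylase complexes, differed by 2.93 and 2.52. Sap30 had 12.64 to 13.67 in the high-median pairs and 10.65, 9.76, 10.30 and 11.05 in pairs 7 to 10.

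The leading genes with lower values in the high-median pairs encoded proteins of cell junctions, translation and intracellular transport. Cldn4 (chr5:134945123-134946934), a claudin of tight junctions, had a lowest, median and highest pair mean of 11.02, 12.02 and 13.44 in the high-median pairs. Pairs 7 to 10 gave 15.72, 15.48, 16.05 and 16.02 and controls 15.01 to 16.35. The other pairs thus lay inside the control range and the high-median pairs below it, with a difference of -3.69 as deposited and -4.02 after centring. Eef2 (chr10:81176631-81182509), the elongation factor that moves the ribosome along the mRNA, had a median of 11.61 and a highest pair mean of 12.49 against 15.46, 14.51, 15.65 and 15.57, a difference of -3.62. Its controls ran from 15.02 to 15.88. Within pair 8, Eef2 was 15.92 in the GM501 twin and 13.10 in the SAGE twin, the twin with the high median.

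Genes of membrane traffic and intracellular transport followed. Rab1b, a GTPase of transport from the endoplasmic reticulum to the Golgi, had 7.12, 7.30 and 8.56 in the high-median pairs and 11.09, 9.68, 11.32 and 11.70 in pairs 7 to 10. Actr1a, the actin-related protein of dynactin, had 7.87, 9.79 and 10.78 against 13.41, 12.04, 13.29 and 13.23. In both genes the value nearest to the high-median pairs was that of pair 8. Ganab, a glucosidase that trims glycoproteins in the endoplasmic reticulum, differed by -3.11, and the haem and choline transporter family gene Flvcr2 by -3.16. Ddb1, a subunit of a ubiquitin ligase of DNA damage recognition, had 10.59 ± 0.61 against 13.72 ± 0.68. The kinase gene Cdk10 (7.21 ± 0.79 against 10.38 ± 0.34) and the RNA-binding protein gene Pcbp4 (5.83 ± 0.35 against 8.96 ± 0.77) completed the leading group with Lamc1, described with the laminins.

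Low and high signals differed. Receptor families of the nose and tongue, whose products serve smell and taste in the adult, shifted by about the gap between the array medians. The 1077 olfactory receptor genes had a median difference of 0.34, the 301 vomeronasal receptor genes 0.34 and the 35 bitter taste receptor genes 0.32, and none of their members was separated in either direction. The 33206 clusters without a listed gene had a median of 0.32. Among all 30142 genes cut into 10 groups by control level, 0 of the 3015 in the lowest group were separated. In the highest group 11.1% were higher and 13.8% lower, with the central 80% of differences between -1.33 and 1.08. The 5th percentile of the arrays, a measure of the weakest signals, averaged 3.75 in the high-median pairs and 3.52 in the other pairs.

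**Figure D2:**
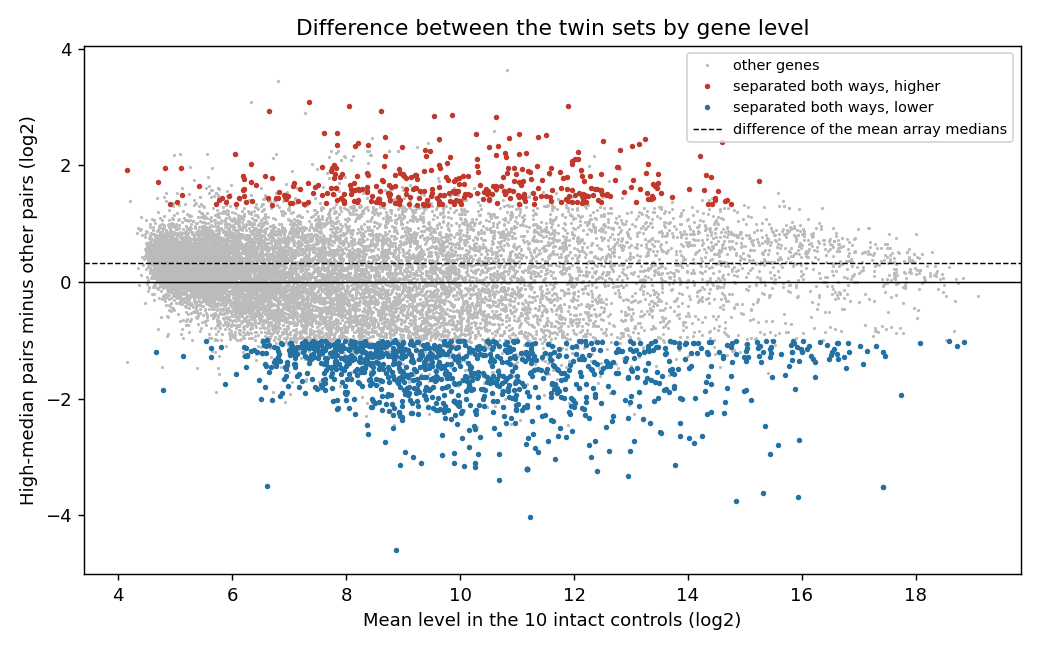
Difference between the high-median and the other pairs (log2, as deposited, vertical axis) of 18090 genes against their mean level in the 10 intact controls (log2, horizontal axis). Red and blue points are the 366 genes higher and the 1113 lower both as deposited and centred; grey points at low levels gather along the dashed line at 0.32, the gap between the mean array medians.

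The difference between the groups declined with the genomic length of the gene. Among 6371 protein-coding genes with a control mean of at least 7, taken in 5 groups by genomic span, the group with the shortest span (median 4873 bases) had a median difference of 0.19. The medians of the following groups were -0.07, -0.23, -0.40 and, for the longest genes (median 102484 bases), -0.52. Of 1275 genes in the shortest group 175 were separated with higher and 95 with lower values, and of 1274 in the longest group 27 with higher and 242 with lower values. Over all 9019 genes with this control level 8.87% were higher and 11.9% lower as deposited, and 3.63% and 17.7% after centring. After centring all 5 medians were negative, from -0.13 for the shortest to -0.84 for the longest genes, so the order held but short genes were not higher against the array median. Spearman's rho of span with the difference was -0.28 across the 6371 genes, which share the same arrays and are not independent. The genes separated both ways had a median span of 10410 bases where higher and 31933 bases where lower. Promoter GC content, over 250 bases before to 50 after the gene start, showed a shallower trend, with group medians from 0.019 to -0.36 and rho of -0.14 across 5292 genes. Control level showed almost none (rho of -0.00601).

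**Figure D3:**
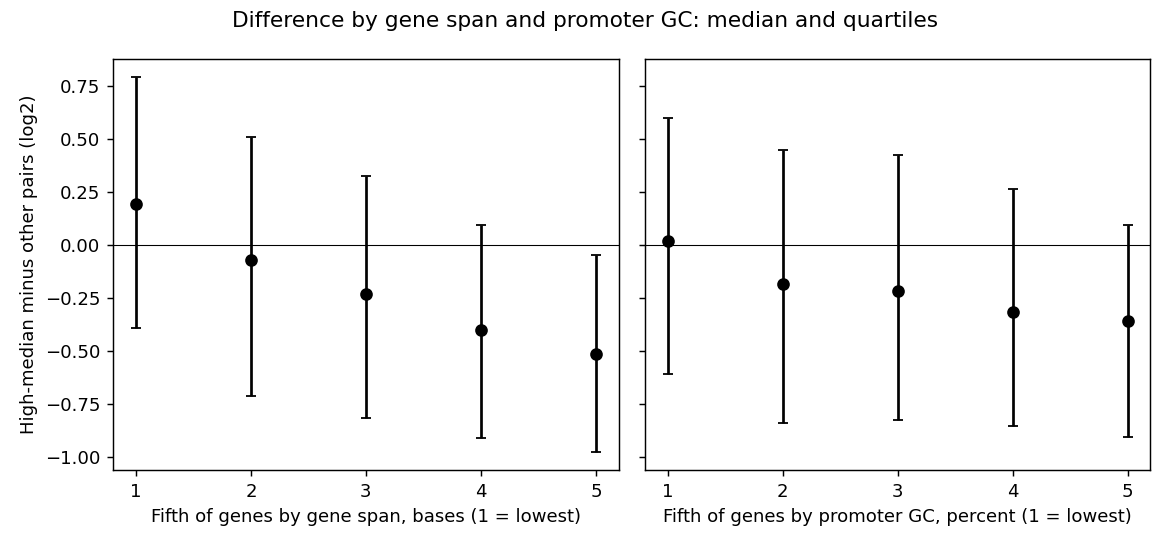
Median difference between the high-median and other pairs (log2, as deposited; bars are quartiles) in 5 groups of protein-coding genes by genomic span (left) and by promoter GC content (right). The medians go from 0.19 in the shortest to -0.52 in the longest genes, and from 0.019 to -0.36 across GC content.

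Families of respiratory chain and ribosomal proteins had positive median differences. These families were formed by gene symbol after the values had been seen. Of 44 Nduf genes, which encode subunits and assembly factors of complex I of the respiratory chain, 18 were separated with higher values and 0 with lower values, with a median difference of 0.91. Of 75 mitochondrial ribosomal protein genes, 19 were higher and 0 lower (median 0.60). The cytosolic ribosomal protein genes Rpl and Rps had 4 of 40 higher and 0 lower (median 0.36), the Sm and Lsm genes of splicing particles a median of 0.69 over 20 genes, and the Smim small membrane proteins 4 of 19 higher (median 0.67). Over all 18090 genes 5.32% were higher and 6.26% lower, and the median was 0.21. Among the 9019 genes with a control mean of at least 7 the shares were 8.87% and 11.9%, so the Rpl and Rps count is near its share. After centring 5 Nduf genes were higher and 0 lower, 7 mitochondrial ribosomal protein genes higher and 1 lower, and 0 of the 40 Rpl and Rps genes was separated, against 2.02% higher and 9.85% lower over all genes. The medians of these families were positive under each of the 4 scalings (as deposited, centred on the median, centred on the 75th percentile, quantile-normalized). Other families formed in the same way were less one-sided. As deposited, the Timm and Tomm genes had 3 of 21 higher and 2 lower (median 0.39). Proteasome Psm genes had 3 of 45 higher and 2 lower, with a median of 0.12 that became -0.20 after centring. Of 25 myosin genes 5 were lower and 0 higher (median -0.11), and of 6 dynein genes 1 was lower and 0 higher (median -0.31).

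Laminins, adaptors of vesicle coats and membrane transporters had negative medians. Of 7 laminin genes 3 were lower (median -2.07), of 19 clathrin adaptor genes 8 (median -0.93), and of 214 solute carrier genes 25 lower and 2 higher (median -0.15). The 25 solute carriers (11.7%) were near the 11.9% lower among all genes with a control mean of at least 7. Eif initiation factors had 11 of 47 lower and 2 higher around a median of 0.02, which turned to -0.31 after centring. After centring 4 laminin, 10 adaptor, 34 solute carrier and 13 Eif genes were lower and 0 higher. Of 4274 pseudogenes, 3066 of them above the level filter, 420 were higher and 127 lower, and 154 higher and 186 lower after centring. A pseudogene can share probes with its parent gene, so these counts are not of independent loci.

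The lists of genes of known function covered more of the cell. Of the 44 lists with at least 3 genes above the level filter, the median difference was negative under all 4 scalings in 33, positive in 4 and of changing sign in 7. As deposited, the median over all genes with a control mean of at least 7 was itself slightly negative (-0.037). The 4 positive lists were oxidative phosphorylation subunits, cytosolic ribosomal proteins, residual oocyte transcripts and transcripts of the 2-cell stage. After centring their medians were only 0.10, 0.014, 0.034 and 0.058. The last 2 lists had low signals, with median control levels of 5.31 and 5.74. As deposited their medians, 0.36 and 0.38, were near the gap of 0.32 between the mean array medians.

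**Figure D4:**
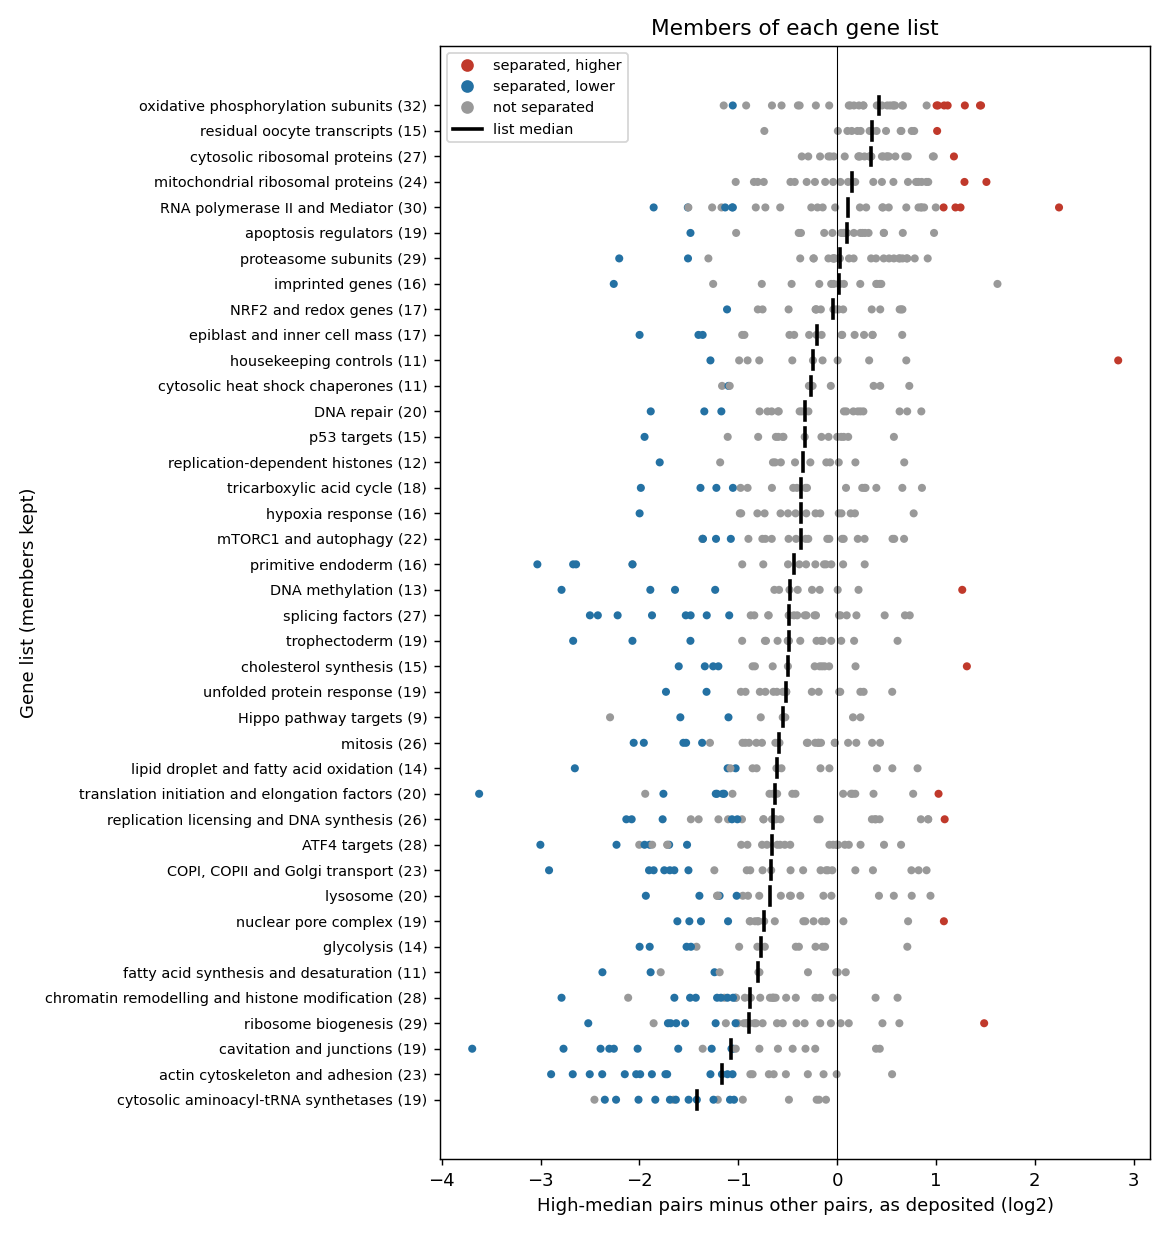
Difference between the high-median and other pairs (log2, as deposited, horizontal axis) of each member of the lists with at least 8 genes above the level filter; black bars are list medians, red and blue points separated genes. Cytosolic aminoacyl-tRNA synthetases (median -1.42), actin and adhesion genes (-1.17) and cavitation and junction genes (-1.07) lie lowest, and oxidative phosphorylation subunits (0.43) highest.

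Epithelial genes of the trophectoderm were lower in the high-median pairs. Of 19 genes of cavitation and junctions, 10 were separated with lower values and 0 with higher values, against 6.26% and 5.32% of all genes as deposited. Beside Cldn4 they included Aqp3, a water and glycerol channel, with 10.05, 10.54 and 11.85 in the high-median pairs and 13.67, 12.74, 14.06 and 13.56 in pairs 7 to 10. Ctnna1, the alpha-catenin that links cadherins to actin, had 9.57 ± 0.47 against 11.96 ± 0.48, and the cadherin gene Cdh1 differed by -1.61. The sodium pump subunit Atp1b1 differed by -1.07, whereas Atp1b3, another of its subunits, had 0.43 and was not separated. After centring 9 of the 19 were lower, and Atp1b1 and Tjp1 were no longer separated. Of 23 genes of the actin cytoskeleton and adhesion, 14 were lower and 0 higher. Myh10, a non-muscle myosin, had 9.40, 10.09 and 10.86 against 13.21, 12.48, 13.24 and 13.20, and vinculin (Vcl) and filamin A (Flna) differed by -2.67 and -2.50. Flna lies on the X chromosome. Actb itself differed by -1.28, from 15.57 ± 0.18 to 16.85 ± 0.19, and its 6 high-median pair means (15.38 to 15.87) lay below all controls (16.45 to 17.10).

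The laminins, which form the basement membrane, gave the widest spread among the other pairs. Lamc1 (chr1:153218922-153332786) had 7.71, 8.17 and 8.64 in the high-median pairs and 11.88, 9.11, 12.19 and 11.56 in pairs 7 to 10. Lama1 (chr17:67697127-67822645) had 7.66, 7.93 and 8.49 against 11.29, 8.56, 11.44 and 11.38. In both genes pair 8 stood just above the highest high-median pair, while pairs 7, 9 and 10 lay inside the control ranges of 10.19 to 12.55 and 9.82 to 12.73. For Lama1, even the GM501 twin of pair 8 was at 9.04, below every control.

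Regulators of the blastocyst lineages were measured beside the structural genes of those lineages. Over all genes with a control mean of at least 7, 11.9% were lower as deposited. The trophectoderm and inner cell mass counts below are not far above this share. In the trophectoderm list 3 of 19 genes were lower: Krt8, a keratin (15.19 ± 0.44 against 16.67 ± 0.32), Fgfr2, a receptor for fibroblast growth factors (10.16 ± 0.30 against 12.23 ± 0.31), and Lrp2, the endocytic receptor megalin (11.39 ± 1.05 against 14.06 ± 0.65). Cdx2, the transcription factor that specifies trophectoderm, had 10.60 to 11.31 in the high-median pairs and 11.34, 11.33, 11.45 and 11.82 in the other pairs. These values did not overlap, but the difference of -0.50 was below 1 log2 unit. In the primitive endoderm list 4 of 16 were lower: Lama1, Lamc1, Lrp2 and Fgfr2. In the inner cell mass list 3 of 17 genes were lower, all of them transcription factors of pluripotency. Pou5f1 had 7.77, 8.33 and 8.69 against 9.55, 9.32, 9.77 and 10.13, with controls from 9.32 to 10.09. Tfcp2l1 had 11.43 ± 0.71 against 13.43 ± 0.52, and Zfp42 differed by -1.36. Nanog overlapped (11.06 to 13.69 against 12.71 to 13.70, difference -0.94), as did Sox2 (-0.43) and Gata6, a regulator of primitive endoderm (-0.31). With SAGE twins alone the signs of Nanog and Sox2 turned.

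Translation was divided between its enzymes and its structural proteins. As deposited, 8.87% of all genes with a control mean of at least 7 were higher and 11.9% lower. All 19 genes listed as cytosolic aminoacyl-tRNA synthetases had negative differences, and 11 of them were separated with lower values. This list includes Fars2, the mitochondrial enzyme for phenylalanine, at -0.18. Sars, the enzyme for serine, had 9.68, 10.73 and 11.26 in the high-median pairs against 13.34, 11.87, 13.12 and 13.51, and Cars and Tars differed by -2.24 and -2.01. Ribosome biogenesis had 7 of 29 lower and 1 higher. Bop1, of a complex that processes ribosomal RNA, differed by -2.52 and the RNA polymerase I subunit Polr1a by -1.71, whereas Nop10, a small protein of snoRNA particles, was 1.49 higher. Initiation and elongation factors had 6 of 20 lower, with Eif4b at -1.76 and Eif4a1 at -1.21 beside Eef2. In the same list 1 was higher, Eif1ax (1.03), which was not separated after centring. The 27 listed cytosolic ribosomal proteins had a median of 0.34, with Rps28 (1.18) separated higher and 0 lower. After centring 0 were separated and their median was 0.014, so against the array median they hardly differed. In the fixed list of 24 mitochondrial ribosomal proteins 2 were higher, Mrpl15 (11.75 ± 0.28 against 10.24 ± 0.41) and Mrps22 (1.29). After centring 1 was higher and 1 lower, and the median of 0.15 became -0.18.

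Genes of energy metabolism follow, beside 8.87% higher and 11.9% lower as deposited over all genes with a control mean of at least 7. Oxidative phosphorylation subunits had 7 of 32 higher and 1 lower, with a median of 0.43 as deposited. After centring 2 were higher and 2 lower, with a median of 0.10, so the excess of higher members was not seen after centring. Ndufb3 had 14.41, 14.65 and 14.86 in the high-median pairs against 13.00, 13.07, 13.27 and 13.40, and Ndufa4 had 15.56, 15.75 and 15.89 against 14.31, 14.22, 14.06 and 14.50. For both genes the highest control, 14.06 and 14.94, was below every high-median pair. The member with lower values was Atp5a1, a catalytic subunit of ATP synthase (-1.06), and the small ATP synthase subunit Atp5e was higher (1.29), though not after centring. The tricarboxylic acid cycle had 4 of 18 lower and 0 higher, with Ogdh (9.54 ± 0.19 against 11.52 ± 0.30), Cs and Idh3a leading. Glycolysis had 4 of 14 lower and 0 higher. Hexokinase 2 (Hk2) had 7.54 ± 0.32 against 9.54 ± 0.44 and the glucose transporter Slc2a3 10.71 ± 0.52 against 12.23 ± 0.46. Gapdh differed by -0.99 without overlap, just short of 1 log2 unit, and was separated after centring (-1.31).

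Lipid genes showed that the controls did not always lie with the other pairs. Fasn, the fatty acid synthase, had 7.82, 8.17 and 8.67 in the high-median pairs and 10.68, 9.49, 11.07 and 11.13 in pairs 7 to 10, with controls from 8.22 to 9.60, overlapping both. Acly, which supplies acetyl-CoA to it, had 8.23 ± 0.44 against 10.11 ± 0.34 with controls from 8.33 to 9.51. Mvk, the mevalonate kinase of cholesterol synthesis, had 7.77 ± 0.36 against 9.02 ± 0.52, and its controls (6.74 to 8.05) lay with the high-median pairs. In that list 4 of 15 genes were lower, Hmgcs1, Mvd, Mvk and Lss, and Sc5d, a late enzyme of the pathway, was 1.31 higher. After centring Lss and Sc5d were not separated. Of 11 genes of fatty acid synthesis and desaturation 3 were lower, and of 14 of lipid droplets and fatty acid oxidation 3, led by the droplet coat protein Plin3 (-2.65). None was higher in either of these lists. The shares over all genes with a control mean of at least 7 were 11.9% lower and 8.87% higher as deposited.

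Nuclear genes went to both sides, in places within the same complex. Their counts stand beside 8.87% higher and 11.9% lower as deposited over all genes with a control mean of at least 7. Of 30 genes of RNA polymerase II and Mediator, 4 were higher and 5 lower, with a median of 0.11, or -0.099 without pair 8. After centring 1 was higher, Polr2i, and 7 were lower, and the median was -0.22. Polr2i (chr7:30232074-30233387), a small polymerase subunit, had 11.09, 11.71 and 11.91 in the high-median pairs and 9.12, 9.11, 9.42 and 9.74 in pairs 7 to 10, with controls from 9.02 to 9.90. The small subunits Polr2g and Polr2j differed by 1.20 and 1.08 and were not separated after centring. The largest subunit, Polr2a, went the other way, with 9.74, 10.19 and 10.55 against 11.59, 11.27, 11.64 and 12.35, as did the elongation factor Supt6 (-1.86). Splicing factors had 8 of 27 lower and 0 higher, among them the U5 particle protein Prpf8 (-2.42) and Sf3b3 (-2.50). Chromatin regulators had 9 of 28 lower and 0 higher. Trim28, the corepressor that silences transposable elements, had 8.82, 9.46 and 9.98 against 12.23, 11.79, 12.27 and 12.63.

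In the DNA methylation list 4 of 13 genes were lower, Dnmt1, Dnmt3b, Uhrf1 and Trim28, and Dppa3, an oocyte and embryo factor that limits maintenance methylation, was 1.27 higher. After centring Dnmt1 and Dppa3 were not separated. Replication licensing and DNA synthesis had 5 of 26 lower, with Mcm2 at -2.13, and 1 higher, the licensing inhibitor Gmnn (1.09), which was not separated after centring. Mitosis had 5 of 26 lower and 0 higher, with the kinase Aurka at -2.06 and the checkpoint target Cdc20 at -1.96. The nuclear pore had 4 of 19 lower, led by Nup93 (-1.62), and Nup43 was 1.08 higher, though not after centring. Among DNA repair genes Fancd2 (-1.89), Brca1 (-1.34) and Prkdc (-1.17) were lower, of 20. Over all genes with a control mean of at least 7, 11.9% were lower and 8.87% higher as deposited. The DNA repair count was not far above the share of lower genes.

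Stress and secretory genes are read against the 6.26% lower and 5.32% higher of all genes. Among genes with a control mean of at least 7 the shares were 11.9% and 8.87%. ATF4 targets had 6 of 28 lower and 0 higher, led by the amino acid transporter Slc7a5, with 7.88, 8.86 and 9.56 in the high-median pairs and 11.98, 10.70, 12.12 and 12.09 in pairs 7 to 10. Sesn2, a sensor of leucine, had 7.12 ± 0.15 against 9.07 ± 0.50 and was the 1 p53 target separated, of 15. The unfolded protein response had 2 of 19 lower, the chaperone Hspa5 and Herpud1, and the heat shock chaperones 1 of 11, Hspd1. COPI, COPII and Golgi transport had 7 of 23 lower, with Sec24c at -2.91, and the lysosome 4 of 20, with prosaposin (Psap) at 15.69 ± 0.30 against 17.63 ± 0.06. The kinase Mtor (-1.36) and the autophagy genes Ulk1 and Sqstm1 were among 4 of 22 lower in their list. Apoptosis regulators had 1 of 19 lower, Bok, NRF2 and redox genes 1 of 17, Txnrd1, and hypoxia genes 1 of 16, Hk2. These last counts, and those of p53 targets and heat shock chaperones, are near the share of all genes. That of the unfolded protein response is near the share of genes with a control mean of at least 7. Of 9 Hippo pathway genes, a list of targets and components, the components Ajuba and Tead1 were lower (-1.59 and -1.10). Of 29 proteasome subunits Psmd3 and Psmd2 were lower (-2.20 and -1.51). Slc39a4, a zinc importer, differed by -1.19. Mt1 (chr8:94178883-94180327), a zinc-binding metallothionein, was the 1 higher gene in these lists, at 13.29 ± 0.27 against 11.81 ± 0.38, and controls from 10.44 to 11.64 overlapped the other pairs and lay below every high-median pair.

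In the lists of maternal transcripts, imprinted genes and histones, counts were near the shares over all genes, 5.32% higher and 6.26% lower. Of 15 residual oocyte transcripts above the level filter 1 was higher, Ooep, a gene of the subcortical maternal complex (1.01, not separated after centring), and 0 lower, with a median of 0.36 that became 0.034 after centring. None of 6 transcripts of the 2-cell stage was separated. Of 16 imprinted genes 1 was lower, Igf2r, the receptor that clears Igf2, with 6.77 ± 0.25 against 9.03 ± 0.53. Of 12 replication-dependent histone genes 1 was lower, H1f5 (-1.79).

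Small RNA genes are described next, chosen after their values had been seen. Of 332 miRNA genes above the level filter, 2 were separated with higher and 14 with lower values as deposited. After centring, over all 600 miRNA genes, 1 was higher and 29 were lower. RefSeq (GRCm38.p6) gave mature sequences for 7 of the 16 genes separated as deposited. Mature miRNAs guide silencing through the seed, bases 2 to 8, printed in capitals. The 2 higher and 2 of the lower genes are shown to let their seeds be compared:

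mmu-miR-465c-5p: uAUUUAGAauggcgcugaucug

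mmu-miR-692: aUCUCUUUgagcgccucacuc

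mmu-miR-1954: aCUGCAGAgugagacccuguu

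mmu-miR-3470b: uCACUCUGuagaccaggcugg

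No seed was shared among these 4. The cluster of Mir465c-2 (chrX:66832517-66832597) had 10.43, 11.53 and 12.88 in the high-median pairs and 8.21, 9.20, 9.24 and 7.67 in pairs 7 to 10, with controls from 5.87 to 10.21. Mir692-1 differed by 1.19. Mir1954 and Mir3470b had lower values, at 14.47 against 15.84 and 16.53 against 17.80. The labelling is of total RNA on a gene array, so these clusters can measure precursor or host transcript and not the mature miRNA alone. How far their probes tell the named locus from others with similar sequence is not known here.

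The Sfmbt2 gene (chr2:10370440-10595253) holds a large cluster of miRNAs in an intron, is expressed from the paternal allele in the early mouse embryo and acts in placental development. Sfmbt2 had 9.68, 10.29 and 10.59 in the high-median pairs and 12.43, 11.28, 11.96 and 11.83 in pairs 7 to 10, with controls from 10.41 to 11.65. The gene table places 72 miRNA genes inside it, of which 64 were on the array. Copies with identical values left 42 distinct profiles. Of these 5 were separated with lower values and 0 with higher values, 33 had negative differences, and the median was -0.66. Over all genes above the level filter 6.26% were lower and 5.32% higher, and of all 332 miRNA genes 14 were lower. These 14 include genes of this same miRNA cluster, among them Mir467b, Mir669j and Mir467a-1, whose identical copies count there as separate genes. The 14 are therefore no independent baseline for it. The cluster of Mir669j had 11.09 to 12.06 in the high-median pairs against 14.25, 13.04, 13.43 and 13.05, and Mir467a-1 had 8.24 to 10.85 against 12.06, 12.02, 11.29 and 10.88. In all 42 profiles the mean of the other pairs was above that of the controls. The mean of the high-median pairs was also above the controls in many of these profiles, and below them in others.

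Small nucleolar RNAs, which guide modification of ribosomal RNA, moved to both sides. Snord104 had 12.21 to 13.41 in the high-median pairs and 9.89, 9.86, 10.38 and 10.40 in pairs 7 to 10. Snord87 had 12.32 to 13.27 against 11.14, 8.90, 11.06 and 9.90, and Snord72 12.46 to 14.28 against 11.71, 9.66, 12.14 and 11.30, though Snord72 was not separated after centring. Snord45b went the other way, with 3.54, 3.83 and 7.80 as lowest, median and highest against 9.30, 9.36, 9.59 and 8.24. Nat1, an N-acetyltransferase gene of a single coding exon, had 5.93 to 7.54 against 4.78, 5.16, 4.95 and 4.64. Of 955 snoRNA genes, 570 of them above the level filter, 20 were higher (2.09%) and 14 lower (1.47%) as deposited. Over all 18090 genes above the filter the shares were 5.32% and 6.26%. The snoRNA shares include genes below the filter, so they are not on the same base and would be larger over the 570. After centring the balance of the snoRNA genes turned, with 11 higher and 23 lower.

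The pairs were then described by genes chosen without them. For each pair, separated genes were chosen on centred values from the remaining 9 pairs, and the share of these genes was counted for which an array of the left-out pair lay on the side of the high-median pairs. Array medians had already placed the pairs, so this too is a description. The arrays of pairs 1 to 6 lay on that side for 68.8% to 96.5% of genes, and those of pairs 7, 9 and 10 for 3.82% to 15.3%. The controls lay between 8.00% and 17.2% when the genes were chosen without pair 8.

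The twins of pair 8 were apart from each other. Its GM501 twin lay on the side of the high-median pairs for 9.56% of these genes and its SAGE twin for 75.1%. In that SAGE twin the genes of both directions came apart. It was on the side of the high-median pairs for 81.7% of the 2914 lower genes but for only 8.36% of the 287 higher genes. These shares are on centred values, and subtracting the twin's array median of 5.12 lowers its values for genes of both directions. How far this gave the split was not tested. Among protein-coding genes the shares were 82.9% of 2464 lower and 4.35% of 138 higher genes, and among pseudogenes 85.7% of 328 and 6.96% of 115. Cox7a1 (8.15) and Sap30 (8.28) were lower in the pair 8 SAGE twin than in any of the other pair means, and Snord104 (9.70) and Snord87 (7.79) lay with the other pairs or below. Snord45b, at 11.19, was far above every high-median pair. Unlike the genes counted above, these named genes were chosen with pair 8 among the other pairs. The side on which its pair mean lay was therefore fixed in advance. The distance between the co-twins of pair 8, the root mean square difference over genes, was 1.07 log2 units, against 0.52 to 0.86 in the remaining 9 pairs.

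The shares for higher and lower genes also differed within the high-median pairs. A larger array median lowers every centred value of its array. This raises the share for the lower genes and reduces that for the higher genes. The part of centring in the following shares was not tested. The GM501 twin of pair 1, with the highest array median (5.28), lay on its group's side for 98.4% of the lower genes and 40.5% of the higher genes. The twins of pairs 5 and 6, with the lowest medians of their group, showed the reverse order, with 94.2% to 96.5% of the higher genes and 64.8% to 84.1% of the lower genes. Among the other pairs the GM501 twin of pair 10 stood out, on the side of the high-median pairs for 50.8% of the higher genes and 4.21% of the lower genes. The mean centred level over the 1113 lower genes ran from 3.43 in pair 1 to 4.28 in pair 5 within the high-median pairs, and from 5.20 in pair 8 to 5.98 in pair 10 among the others.

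**Figure D5:**
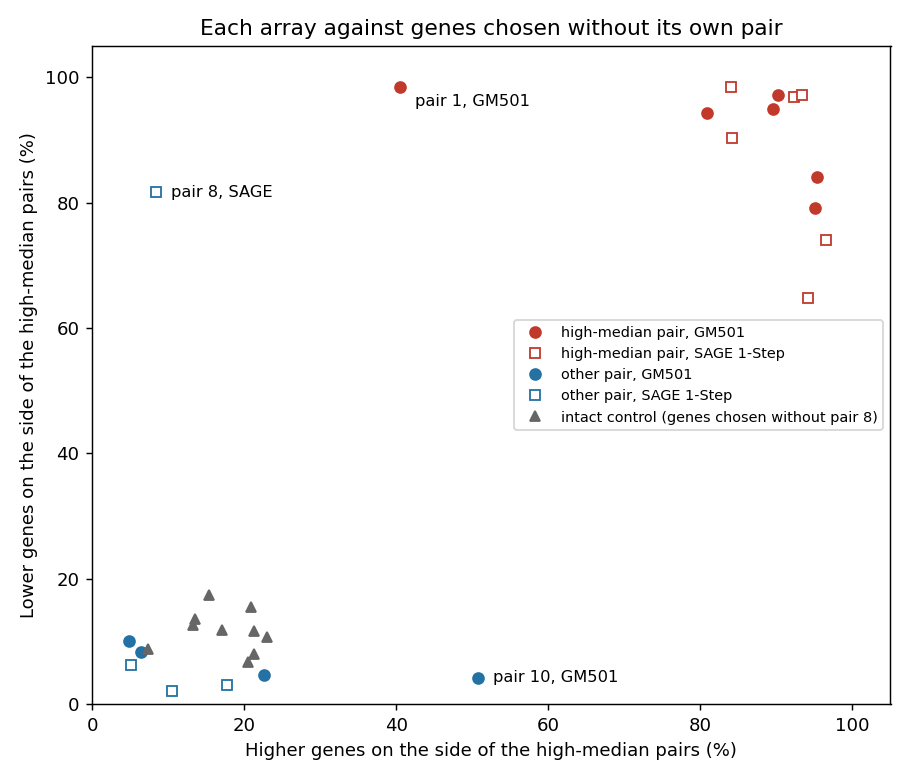
Share of genes on the side of the high-median pairs for each array, for genes higher (horizontal axis, percent) and lower (vertical axis, percent) in those pairs; twin arrays are set against genes chosen without their own pair, controls against genes chosen without pair 8. The SAGE twin of pair 8 lies at 8.36% and 81.7%, the GM501 twin of pair 1 at 40.5% and 98.4%, and the GM501 twin of pair 10 at 50.8% and 4.21%.

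Whether the media acted differently in the groups was tested on the difference between co-twins, GM501 minus SAGE 1-Step, which the rule used only through the levels of both. By limma 0 of 18090 genes (0%) were called within the high-median pairs, where the lowest adjusted p was 0.853 and 850 genes had an unadjusted p under 0.05. Within the other pairs 0 were called as well (lowest adjusted p 0.541, 1353 genes unadjusted), and 0 for the difference of the medium effects between the groups (lowest adjusted p 0.543, 1423 genes unadjusted). By chance about 904.5 genes would fall under an unadjusted p of 0.05. The median gene's 95% confidence interval reached 0.41 log2 units to either side within the high-median pairs and 0.50 within the other pairs, so smaller medium effects were not detectable for most genes. These intervals are not adjusted for the number of genes, whereas the calls are. Far larger effects also went uncalled, such as Ero1a (-1.65) in the high-median pairs and Poc1a (1.31) in the other pairs. In the other pairs, pair 8 sets a high-median SAGE twin against a low-median GM501 twin, and its part in these values was not tested beyond leaving it out, which also left 0 calls.

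The genes with the smallest p had co-twin differences of the same sign in most pairs. In the high-median pairs Ero1a, an oxidase of the endoplasmic reticulum, was lower in the GM501 twin of 6 of 6 pairs (difference -1.65, SE 0.32, adjusted p 0.917 by limma). Ccdc130 was higher in 6 of 6 (1.09, from 0.27 to 2.03), and Cr1l lower in 6 of 6 (-0.87). In the other pairs Poc1a, a centriole gene, was higher in the GM501 twin of 4 of 4 pairs (1.31, SE 0.19, adjusted p 0.541 by limma), and its mean difference in the high-median pairs was -0.035. Dscc1, of a clamp loader of sister chromatid cohesion, was also higher in 4 of 4 (1.30) and in 1 of 6 high-median pairs (-0.48). Prdm14, a regulator of pluripotency, was higher in 4 of 4 other pairs (1.57) and in 5 of 6 high-median pairs (0.51). Flna was lower in the GM501 twin of 4 of 4 other pairs (-1.55, from -2.81 to -0.36), and had 0.038 in the high-median pairs. The difference of the medium effects was -2.65 for Ddx20, a helicase of the SMN complex (adjusted p 0.543 by limma), and none of these passed the threshold.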

How the data were processed

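RNA of 30 single blastocysts was measured on Affymetrix gene arrays after labelling with the GeneChip WT Pico kit, per the labels' protocols. The deposited values are log2 signals from RMA (Affymetrix Expression Console, build mm10), per the submitters' processing notes; versions are not given in the sources used here, and the log base was read from the range of the values. RMA corrects background, normalizes between arrays and combines probes by cluster, so signals are relative. Precision is limited by how many arrays there are.

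Of 65956 clusters 32750 had a listed gene, 30604 of them a single symbol (827 updated through gene ID or accession to GRCm38.p6) and 2146 several, which were not named. For each of 30142 genes the cluster with the highest mean was used, and 60% of genes, those with the highest mean over the 30 arrays, were kept (18090 genes, mean of at least 4.80). Pairs come from the embryo numbers in the labels. With each gene centred within its medium, numbered partners correlated at r of 0.16 to 0.70, and for 7 of 10 GM501 twins the numbered partner was the closest SAGE twin, so the pair was the block. Medium effects and their difference between the groups were fitted with limma 3.58.1 in R 4.3.3 on within-pair differences (lmFit and eBayes, Benjamini-Hochberg adjustment, threshold 0.05, 2-sided). The labels do not say how many matings or days the embryos came from, so p-values cover only how these embryos vary. The other steps used Python 3.11.15. The code was tested on simulated data.

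The groups, gene lists and members were chosen with earlier results of these data known. Named genes were the 10 largest centred differences each way among genes separated both ways, leaving out predicted genes, pseudogenes and small RNAs, which were counted only, up to 3 such members of each list, and Cdx2, Pou5f1, Nanog, Sox2, Gata6, Actb and Gapdh; for the media, the 5 smallest p in each fit. Further list members, the gene families, gene span and promoter GC, the small RNAs, Nat1, the control level of 7 and the description of left-out pairs were chosen after values were seen. The 13 mitochondrially encoded genes had no cluster with a single symbol and were not analysed here. Alternatives were other scalings, filters, thresholds and cluster choices, each medium alone, and leaving out each pair.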

Additional observations from a re-analysis of the deposited data

Results flagged for a closer look

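Of 122 groups of 4 to 10 values checked for a value far from the rest (pair means and control levels of the leading genes and small RNAs, array medians and co-twin distances), 9 held one, and chance flags about 1 in 20. In the other pairs these were Ly96 in pair 10 (6.43), Eef2 in pair 8 (14.51), Actr1a in pair 8 (12.04), the co-twin distance of pair 8 (1.07) and the array median of the GM501 twin of pair 10 (4.59). In the high-median pairs both belonged to pair 6, B2m at 10.77 and Snord45b at 7.805. Among the controls they were Cldn4 in replicate 6 (15.01) and Rab1b in replicate 7 (9.17).

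For 2 genes the medium effect had 1 sign in every high-median pair and the opposite sign in every other pair. Arl14ep was lower in the GM501 twin of 6 of 6 high-median pairs and higher in 4 of 4 other pairs, a difference of the effects of -1.01 (SE 0.18). Noa1, a mitochondrial GTPase gene, showed the same signs, with a difference of -1.24 (SE 0.23). By limma's test of that difference neither passed the threshold (adjusted p 0.543 for both), and a sign pattern picked for the smallest p among 18090 genes is no finding on its own.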

How the results depend on the processing

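The number of genes separated as deposited was 962 higher and 1133 lower. A minimum difference of 0.5 gave 2538 and 1840, and SAGE twins alone gave 625 lower. After median centring (366 higher, 1781 lower), a minimum difference of 0.5 gave 927 higher, GM501 twins alone 167 higher, SAGE twins alone 578 higher and 675 lower, quantile normalization 850 higher and centring on the 75th percentile 752 higher. Leaving out 1 pair gave 963 to 1161 higher and 1063 to 1643 lower as deposited, and 287 to 518 higher and 1662 to 2914 lower after centring; the highest lower count in each came without pair 8. The remaining alternatives (no level filter, averaged clusters, a threshold of the control mean plus 5 SD, medians over named clusters) stayed within 1.5 times. The last 2 of these gave the same groups of pairs.

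The media calls were 0 in the high-median pairs, the other pairs and their difference under every alternative except leaving out a pair. Those ranges were 0 to 1 (Gm25128 without pair 6), 0 to 2 (Scarna6 and Slc39a2 without pair 7; Gm22200 alone, 1 gene, without pair 9) and 0 to 1 (Gm22200 without pair 9). Without the pair as replicate block 0 genes were called in each, with 560, 919 and 934 at an unadjusted p under 0.05, so the block changed no call. Of 1582 alternative values of 113 named genes, 1537 moved by less than 1 SD between pairs and 2 changed sign, Nanog and Sox2 with SAGE twins alone. Of 572 values of list medians 562 moved by less than 1 SD, and 21 changed sign. The causes were not tested.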
